A study of Mus musculus with 12 samples.

Results

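The 10 genes described here encode proteins of the lipid droplet surface and were chosen by symbol from the 55335 genes of the count table. They are the perilipins Plin2, Plin3, Plin4 and Plin5, the CIDE genes Cidea, Cideb and Cidec, the lipase genes Pnpla2 and Pnpla3, and G0s2. Each symbol occurred once in the table, so no choice between rows was needed. The family was picked with results of these libraries already known, and its genotype values are therefore given as a description, with the output of the fit over all genes beside them.

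The study deleted the receptor of thyroid-stimulating hormone (TSH) in myeloid cells and measured RNA by sequencing in 12 libraries, with n = 3 per group. All mice were male and carried the floxed Tshr allele on both copies. Tshr f/f mice carried no Cre, and Tshr f/f,Lyz2-Cre mice (TshrMKO) expressed Cre under the Lyz2 promoter, which is active in macrophages, monocytes and granulocytes. Bone-marrow-derived macrophages (BMDMs) came from mice aged 6 weeks, were grown with M-CSF (10 ng/mL) for 7 days and then received TSH (1 ng/mL) for 24 h in both genotypes. Livers came from mice that began a high-fat diet (HFD) at 6 weeks and ate it for 9 weeks, were fasted for 8 h and received insulin (1.5 U/kg) 5 min before collection, again in both genotypes. No group lacked TSH in the BMDMs, and no liver came from a mouse on another diet or without insulin.

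The libraries held 33683981–40954211 counts in BMDMs and 28962878–40420513 in livers. Tshr had 0–5 counts in every library, so the deletion could not be checked at this depth. For the livers, a listing of receptor counts by the study places the same libraries under the opposite genotype headings, and every liver direction below rests on the labels of the repository. The livers are therefore called Tshr f/f-labelled and TshrMKO-labelled livers. BMDM Tshr f/f replicate 3 had a scaling factor of 0.738 against 0.993–1.114 in the other BMDM libraries.

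A lipid droplet is a core of triglyceride and cholesteryl ester under a phospholipid monolayer, and perilipins coat that monolayer. The perilipins limit the access of lipases, while CIDE proteins join droplets and let lipid pass from smaller to larger ones. Adipose triglyceride lipase (ATGL), encoded by Pnpla2, starts triglyceride breakdown, and the G0s2 protein binds and inhibits it. In liver these proteins set how fat is stored and released in fasting and on a fat-rich diet, and in macrophages they accompany foam cell formation.

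The promoters of the 4 genes on which the genotype values below turn are shown because perilipin and lipase genes respond to nuclear receptors that bind the core motif AGGTCA. Each line holds the 250 bases before the RefSeq start site on the strand of the gene (build GRCm38.p6), in lower case, with AGGTCA and GGGCGG and their reverse complements in capitals. The windows are chr4:86670060-86670309 (minus strand) for Plin2, chr17:56117549-56117798 (minus strand) for Plin5, chr7:141454938-141455187 (plus strand) for Pnpla2 and chr1:193273189-193273438 (minus strand) for G0s2.
Plin2: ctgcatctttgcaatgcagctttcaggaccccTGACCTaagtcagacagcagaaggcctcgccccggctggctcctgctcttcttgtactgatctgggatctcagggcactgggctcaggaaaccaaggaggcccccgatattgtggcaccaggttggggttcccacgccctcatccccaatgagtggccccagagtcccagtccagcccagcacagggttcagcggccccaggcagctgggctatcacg
Plin5: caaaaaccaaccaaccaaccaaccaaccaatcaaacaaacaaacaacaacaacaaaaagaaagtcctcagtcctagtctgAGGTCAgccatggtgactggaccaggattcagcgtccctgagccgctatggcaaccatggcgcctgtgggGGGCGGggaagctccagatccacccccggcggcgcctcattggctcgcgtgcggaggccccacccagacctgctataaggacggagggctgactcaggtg
Pnpla2: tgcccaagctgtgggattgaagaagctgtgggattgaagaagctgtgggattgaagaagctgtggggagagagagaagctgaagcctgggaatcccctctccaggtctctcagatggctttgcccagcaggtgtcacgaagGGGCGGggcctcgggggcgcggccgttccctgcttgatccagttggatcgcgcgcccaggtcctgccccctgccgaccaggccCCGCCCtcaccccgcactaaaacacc
G0s2: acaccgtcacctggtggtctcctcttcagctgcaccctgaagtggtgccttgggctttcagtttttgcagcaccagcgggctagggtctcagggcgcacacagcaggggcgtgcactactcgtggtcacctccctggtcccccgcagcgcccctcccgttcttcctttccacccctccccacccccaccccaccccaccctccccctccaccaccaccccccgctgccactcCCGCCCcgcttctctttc

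Of the 32851 windows of this length in the RefSeq set, 14.02% held AGGTCA and 32.7% held GGGCGG on either strand. Plin2 and Plin5 held AGGTCA, on the minus and the plus strand of the window respectively, with the first base 218 and 170 bases before the start site. Plin5, Pnpla2 and G0s2 held GGGCGG, a motif of GC boxes, and so did Plin3, Cideb and Pnpla3. The direct repeat AGGTCANAGGTCA stood in 0.0335% of all windows and the motif GCGTGGGCG, the sequence bound by EGR1, in 0.536%. Neither was found in the 11 windows of the 9 genes that matched, and Cidea had no entry. These are matches of letters and not measured binding.

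The levels of the 10 genes differed between the tissues in which of them were present at all. Levels between genes are compared as CPM per kb. CPM are counts relative to the library size after TMM scaling by edgeR within a tissue, and these were divided by the length of the exons (GENCODE M21). In BMDMs, Plin2 had the highest level, 183 ± 61.5 CPM per kb (SD, n = 6), followed by Pnpla2 at 22.8 ± 2.28 and Plin3 at 17.8 ± 5.12. The range of Plin2 lay above that of Pnpla2, while Pnpla2 and Plin3 overlapped. Plin4, Plin5, Cidea, Cidec and Pnpla3 had 0 counts in all 6 BMDM libraries. A count of 0 allows up to 3 counts, which corresponded to 0.0733–0.0891 CPM per library and covers counting error only.

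In livers, Plin2 was again the highest at 169 ± 63.3 CPM per kb (SD, n = 6), followed by Cideb at 124 ± 9.56, G0s2 at 78.1 ± 47.0, Plin5 at 43.7 ± 18.3, Pnpla2 at 30.5 ± 5.13, Plin4 at 16.1 ± 6.68, Plin3 at 9.05 ± 1.35, Cidec at 6.42 ± 4.41, Cidea at 1.11 ± 2.09 and Pnpla3 at 0.176 ± 0.0857. The ranges of every pair of neighbours in this order overlapped. Cideb was the steadiest gene of the upper part, spanning 115–139, whereas G0s2 spanned 42.7–150.

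**Figure D1:**
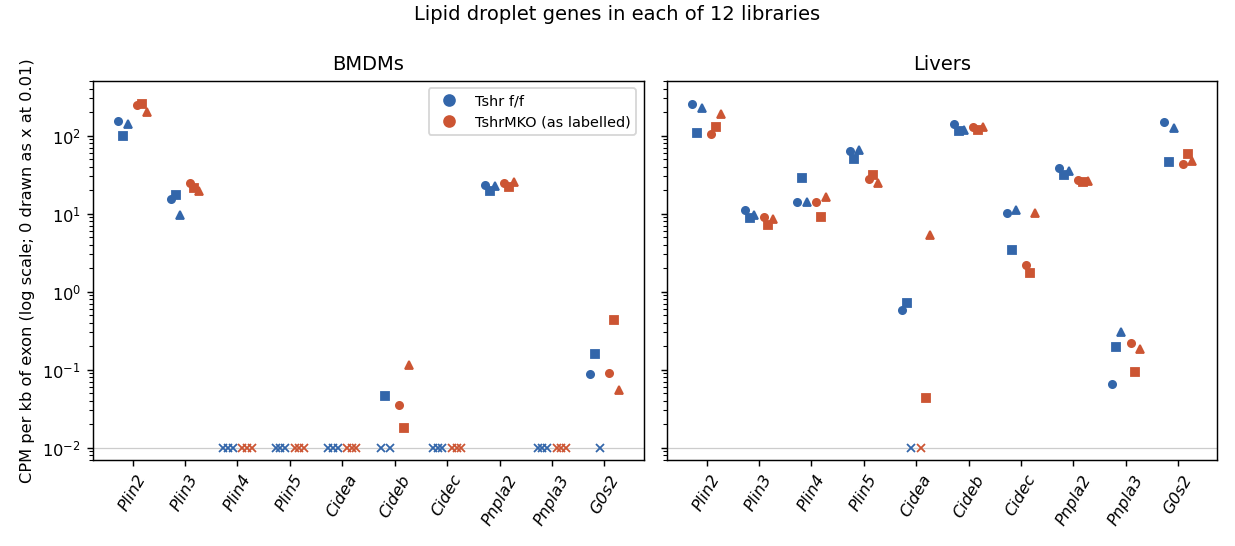
Level of each of the 10 genes in each library, as CPM per kb of exon on a log scale, with BMDMs on the left and livers on the right and circles, squares and triangles for replicates 1, 2 and 3. Crosses at the base mark counts of 0, which Plin4, Plin5, Cidea, Cidec and Pnpla3 had in all 6 BMDM libraries.

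The BMDM comparison asked how myeloid loss of Tshr bears on macrophages under TSH. Plin2, the perilipin of most non-adipose cells, and Plin3, a perilipin that moves from cytosol to growing droplets, were higher in every TshrMKO library than in any Tshr f/f library, and Pnpla2 was not. None of the 3 passed the adjusted threshold of 0.05 in edgeR. Plin2 (ENSMUSG00000028494, chromosome 4, 86648386–86670060, GRCm38) had 547, 342 and 501 CPM in BMDMs of Tshr f/f mice and 868, 886 and 704 CPM in BMDMs of TshrMKO mice. The lowest TshrMKO value exceeded the highest Tshr f/f value. The log2 fold change was 0.82 with an SE of 0.24 (edgeR quasi-likelihood, unadjusted p = 0.0122, adjusted p = 0.222). With each library left out it stayed between 0.65 and 0.99, and the unadjusted p stayed under 0.05 each time. The raw counts of Plin2 were 21788, 14935 and 13039 in Tshr f/f and 33251, 33208 and 29229 in TshrMKO libraries, and did not overlap either.

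Plin3 (chromosome 17, 56277476–56292873) had 58.2, 65.0 and 36.1 CPM in BMDMs of Tshr f/f mice and 92.2, 80.3 and 72.9 CPM in BMDMs of TshrMKO mice. Tshr f/f replicate 3 had the lowest value, and the groups did not overlap. Its log2 fold change was 0.62 with an SE of 0.24 (edgeR, unadjusted p = 0.0367, adjusted p = 0.261). Leaving out Tshr f/f replicate 3 gave a difference of 0.41. Without Tshr f/f replicate 1, TshrMKO replicate 1, 2 or 3, the unadjusted p was 0.0584, 0.112, 0.0755 and 0.0501.

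Pnpla2, the gene of ATGL (chromosome 7, 141455198–141460743), had 70.7, 58.0 and 67.6 CPM in Tshr f/f and 74.9, 65.3 and 76.97 CPM in BMDMs of TshrMKO mice. The groups overlapped, and the log2 fold change was 0.15 with an SE of 0.13 (edgeR, adjusted p = 0.566). G0s2 had 3, 6 and 0 counts in Tshr f/f and 3, 14 and 2 in BMDMs of TshrMKO mice, and Cideb 0, 3 and 0 and 2, 1 and 7. Both were too low to be tested, like the 5 genes at 0.

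**Figure D2:**
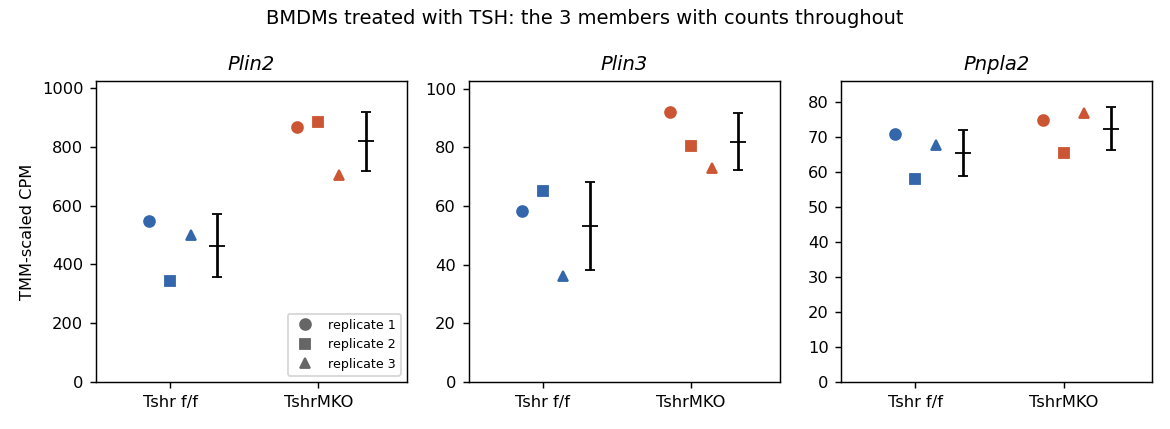
TMM-scaled CPM of Plin2, Plin3 and Pnpla2 in BMDMs treated with TSH, on linear axes that start at 0, with a symbol per replicate and the mean ± SD (n = 3) beside each group. Plin2 and Plin3 did not overlap between genotypes, and Pnpla2 did.

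In all, 3 of the 10 genes passed the filter on low counts in BMDMs. At an adjusted p under 0.05, edgeR called 0 of them, as it called 0 of 15372 genes (0%), and DESeq2 called Plin2 alone (adjusted p = 0.0241, range of the alternatives 0.0241–0.587) and 7.96% of all genes tested. At an unadjusted p under 0.05, 2 were higher, Plin2 and Plin3, where 7.73% of all genes tested were higher and 17.9% passed in either direction. Groups that did not overlap with TshrMKO above were found for 14.8% of all genes. The median log2 fold change of all genes was 0.01.

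Other transcripts differed in the same libraries. All 12 genes of a macrophage activation list were lower in TshrMKO libraries at an unadjusted p under 0.05 (edgeR, adjusted p 0.218–0.262). Their summed level was 6684, 3524 and 52457 CPM in Tshr f/f and 681, 638 and 1536 CPM in TshrMKO libraries, so Tshr f/f replicate 3 stood far above its group. At the median these 12 genes stood at −5.21 on the log2 scale, or −2.88 with that library left out, when 8 of 12 genes had an unadjusted p under 0.05. The count was also 8 without TshrMKO replicate 1 or 2. Lyz2, whose promoter drives the Cre, had 8871, 9844 and 8773 CPM in Tshr f/f and 16149, 14537 and 22320 CPM in TshrMKO libraries, a log2 difference of 0.95 (SE 0.25, edgeR adjusted p = 0.218). The other 6 macrophage markers summed to 5906–6444 and 5495–7014 CPM, which overlapped. Of these, Adgre1 was lower in every TshrMKO library (log2 difference −0.30, SE 0.20, edgeR adjusted p = 0.438), and the other 5 overlapped.

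Fibroblast markers summed to 1004–2568 CPM in Tshr f/f and 682–1348 CPM in TshrMKO BMDMs, Kupffer cell markers to 229–505 and 64.8–373 CPM, stellate cell markers to 143–244 and 112–188 CPM, and endothelial markers to 7.95–33.7 and 8.39–22.6 CPM, all overlapping. Among the Kupffer cell markers, Marco at −2.17 (SE 0.49) and Timd4 at −2.70 (SE 0.71) on the log2 scale did not overlap between genotypes (edgeR, adjusted p = 0.218 for both), and Clec4f was at 0. Vsig4 at 1.07 (SE 0.84) and Cd5l at 1.63 (SE 1.14) went the other way and overlapped. Neutrophil markers summed to 7.31–48.7 and 4.64–10.3 CPM and lymphocyte markers to 5.34–14.2 and 5.47–16.2 CPM. Hepatocyte and adipocyte markers were at 0 but for traces of at most 0.0916 CPM. The part of these differences in the values of Plin2 and Plin3 was not tested.

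Genes around the droplet in BMDMs were taken from 5 lists, and no gene of these lists passed the adjusted threshold in edgeR. Of 20 droplet partners, 16 were tested, and at an unadjusted p under 0.05 2 were higher and 1 was lower in TshrMKO. Pcyt1a, which makes the phosphatidylcholine of the droplet surface, had 112, 118 and 85.1 CPM in Tshr f/f and 169, 176 and 184 CPM in TshrMKO, a log2 difference of 0.75 (SE 0.17). Spg20 was at 0.45 and Acsl3, an acyl-CoA synthetase of nascent droplets, at −0.45 on the log2 scale. Of 17 triglyceride synthesis genes, 13 were tested, with 1 higher and 4 lower. Dgat2, which adds the last acyl chain of triglyceride, had 1.46, 5.86 and 24.0 CPM in Tshr f/f and 0.470, 0.80 and 0.651 CPM in BMDMs of TshrMKO mice, a log2 difference of −4.02 (SE 1.03). Soat2 was at −1.32 and Lpin1, a phosphatidic acid phosphatase, at 2.06.

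Of 12 neutral lipid breakdown genes, 7 were tested in BMDMs and 2 were higher at an unadjusted p under 0.05, the cholesteryl ester hydrolase gene Nceh1 at 1.24 (SE 0.39) and Lipa, which encodes lysosomal acid lipase, at 1.12 (SE 0.36) on the log2 scale. Of 18 PPAR target genes, 11 were tested, with 6 higher and 0 lower. Cd36, a fatty acid receptor, had 634, 576 and 416 CPM in Tshr f/f and 1093, 1027 and 764 CPM in BMDMs of TshrMKO mice, a log2 difference of 0.83 (SE 0.25), while Creb3l3 and Cpt1b were under 3 CPM in every library. Of 12 SREBP1c and ChREBP targets, 10 were tested and 0 passed an unadjusted p under 0.05. The median log2 differences of these lists were −0.03, −0.27, 0.44, 0.82 and 0.06 in the order given, against 0.01 over all genes.

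In livers the question was how the same deletion in myeloid cells bears on hepatic lipid handling after HFD. Plin5, the perilipin that ties droplets to mitochondria in oxidative tissues, and Pnpla2 were lower in every TshrMKO-labelled liver than in any Tshr f/f-labelled liver, and G0s2 was lower on average with 1 library overlapping. All 10 genes were tested, and none passed the adjusted threshold in edgeR. Bulk liver RNA cannot tell fewer cells of a type from less RNA per cell.

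Plin5 (ENSMUSG00000011305, chromosome 17, 56111601–56117596) had 131, 106 and 137 CPM in Tshr f/f-labelled livers and 57.2, 64.3 and 52.0 CPM in TshrMKO-labelled livers. The lowest value of the former was well above the highest of the latter. On the log2 scale the fold change was −1.11 with an SE of 0.13 (edgeR, unadjusted p = 6.84e-05, adjusted p = 0.206), and Plin5 ranked 5 among 15062 genes by p. With each library left out the difference was −1.22 to −1.04, and every alternative kept the direction and an unadjusted p under 0.05. DESeq2 gave an adjusted p of 2.62e-09, and the range over all alternatives was 2.62e-09 to 0.687.

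Pnpla2 had 115, 94.2 and 106 CPM in Tshr f/f-labelled livers and 81.4, 76.9 and 80.0 CPM in TshrMKO-labelled livers. The groups did not overlap, and the TshrMKO-labelled livers lay close together, with an SD of 2.29 CPM. The log2 fold change was −0.40 with an SE of 0.10 (edgeR, unadjusted p = 0.00475, adjusted p = 0.334). DESeq2 gave an adjusted p of 0.0286, and the range over all alternatives was 0.0286 to 0.697.

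G0s2, the inhibitor of ATGL (ENSMUSG00000009633, chromosome 1, 193272161–193273217), had 131, 40.1 and 109 CPM in Tshr f/f-labelled livers and 37.2, 50.8 and 40.7 CPM in TshrMKO-labelled livers. Replicate 2 of the Tshr f/f livers lay within the range of the other group. Its log2 fold change was −1.12 with an SE of 0.41 (edgeR, unadjusted p = 0.0314, adjusted p = 0.432). Leaving that library out gave −1.48 (adjusted p = 0.0584, range of the alternatives 0.0584–0.755), and leaving out Tshr f/f replicate 1 gave −0.81 with an unadjusted p of 0.0900. That p was also above 0.05 without Tshr f/f replicate 3 and without TshrMKO replicate 1 or 3 (0.0811, 0.0896 and 0.0790).

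Per length, G0s2 stood at 3.96, 1.48 and 3.56 times the level of Pnpla2 in Tshr f/f-labelled livers and at 1.58, 2.29 and 1.77 times in TshrMKO-labelled livers. The groups overlapped through the same Tshr f/f replicate 2. In BMDMs the ratio was at most 0.0198.

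Plin2 in liver had 890, 377 and 791 CPM in Tshr f/f-labelled livers and 370, 457 and 665 CPM in TshrMKO-labelled livers. The groups overlapped, with Tshr f/f replicate 2 near the bottom of the other group. On the log2 scale the fold change was −0.46 with an SE of 0.36 (edgeR, adjusted p = 0.704), and without that replicate it was −0.76 with an unadjusted p of 0.0200. Plin4, a large perilipin of nascent droplets in adipocytes, had 82.3, 166 and 81.0 CPM and 81.0, 51.8 and 95.5 CPM, with Tshr f/f replicate 2 the highest of all (log2 fold change −0.53, SE 0.35, edgeR adjusted p = 0.644). Without that library the difference was −0.11. Plin3 spanned 32.8–42.5 and 27.3–34.6 CPM, which overlapped (log2 fold change −0.26, SE 0.13, edgeR adjusted p = 0.554).

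The CIDE genes had no common direction in liver. Cideb, the CIDE gene of hepatocytes and of lipoprotein loading, had 207, 170 and 174 CPM in Tshr f/f-labelled livers and 192, 173 and 191 CPM in TshrMKO-labelled livers, a log2 fold change of 0.01 with an SE of 0.11 (edgeR, adjusted p = 0.983). Of its exon bases 76.34% overlap Nop9 on the opposite strand, and the sources used here do not state whether the counting used strand. In BMDMs, where Nop9 had 628–1086 counts per library, Cideb had at most 7.

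Cidec, which enlarges droplets in fatty liver, had 18.8, 6.29 and 20.4 CPM in Tshr f/f-labelled livers and 4.05, 3.24 and 18.7 CPM in TshrMKO-labelled livers. TshrMKO replicate 3 stood with the higher Tshr f/f livers, and Tshr f/f replicate 2 with the lower TshrMKO livers. The log2 fold change was −0.81 with an SE of 0.76 (edgeR, adjusted p = 0.759), and without TshrMKO replicate 3 it was −2.05 (unadjusted p = 0.0105, adjusted p = 0.649).

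Cidea, a CIDE gene of brown fat that appears in steatotic liver, had 19, 29 and 0 counts in Tshr f/f-labelled livers and 0, 2 and 168 counts in TshrMKO-labelled livers. A single library held most of its counts. Its log2 fold change was 2.01 with an SE of 1.95 (edgeR, adjusted p = 0.770) and turned to −4.08 without TshrMKO replicate 3. The 3 livers with 19, 29 and 168 counts have sample IDs that begin with A, and the others, at 0–2 counts, begin with B. In replicate order the letters were A, A and B for Tshr f/f-labelled livers and B, B and A for TshrMKO-labelled livers. The letter was thus not balanced between the groups, which bears on all 10 genes. With it as a covariate, 4 of the 10 genes had an unadjusted p under 0.05 and 0 an adjusted p under 0.05 (edgeR). What the letter stands for is not given in the sources used here.

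Pnpla3, a lipase relative that binds the ATGL cofactor ABHD5, was close to the limit of detection, with 3, 11 and 14 counts in Tshr f/f-labelled livers and 12, 6 and 8 in TshrMKO-labelled livers (log2 fold change −0.21, SE 0.67, edgeR adjusted p = 0.950).

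**Figure D3:**
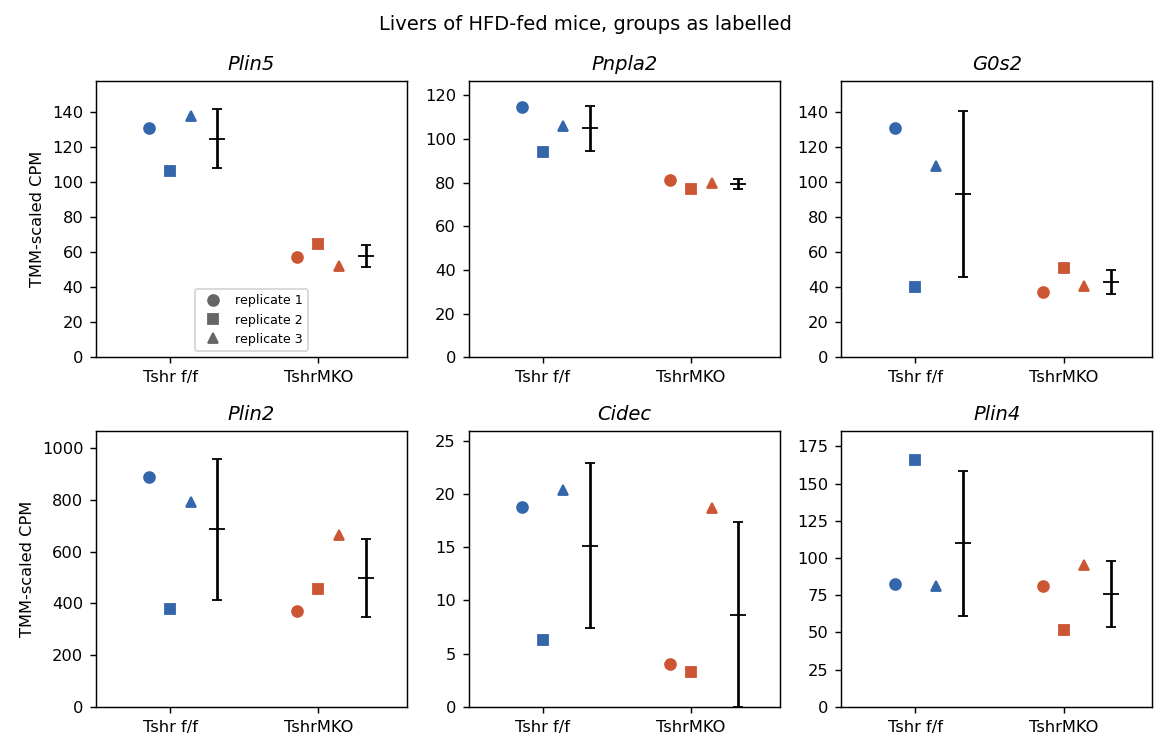
TMM-scaled CPM of 6 of the genes in livers of HFD-fed mice, grouped as labelled, on linear axes from 0, with a symbol per replicate and the mean ± SD (n = 3) beside each group. Plin5 and Pnpla2 did not overlap between groups, while Tshr f/f replicate 2 lay apart from its group in G0s2, Plin2, Cidec and Plin4.

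At an adjusted p under 0.05, edgeR called 0 of the 10 genes in liver and 0 of 15062 genes (0%), while DESeq2 called Plin5 and Pnpla2 and 1.79% of all genes tested. At an unadjusted p under 0.05, 3 genes were lower (Plin5, Pnpla2 and G0s2), where 5.18% of all genes were lower and 10.5% passed in either direction. Without Tshr f/f replicate 2 this count was 5, since Plin2 and Plin3 joined. Groups that did not overlap with the TshrMKO-labelled livers below were found for 2 of the 10 genes and for 7.74% of all genes. The median log2 fold change was −0.43 over the 10 genes and −0.01 over all genes.

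**Figure D4:**
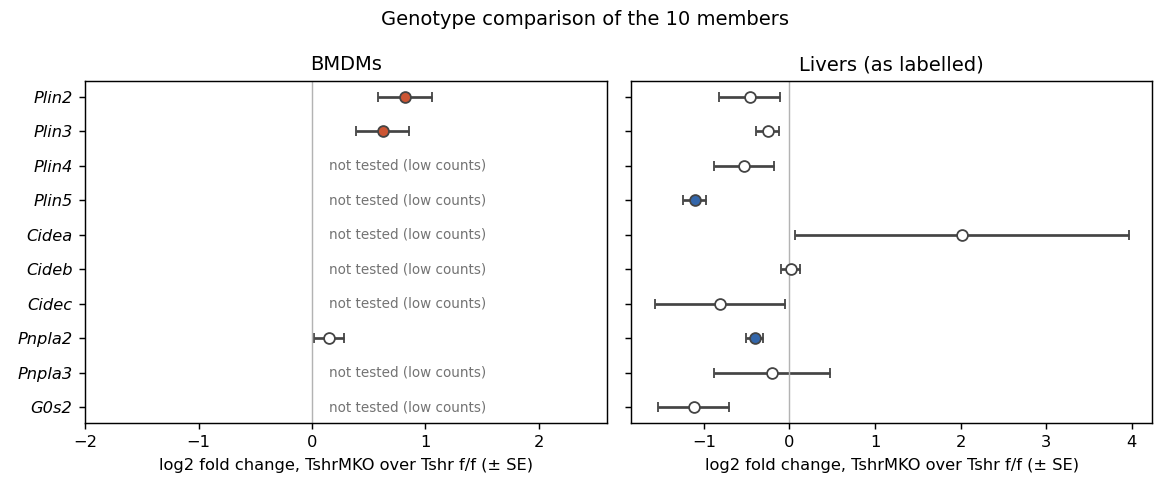
Log2 fold change of TshrMKO over Tshr f/f with its SE (bars) for each gene, BMDMs on the left and livers on the right, with filled points where the 3 values of each genotype did not overlap. Plin2 and Plin3 lay above 0 in BMDMs at 0.82 and 0.62, and Plin5 and Pnpla2 below 0 in livers at −1.11 and −0.40.

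Markers of other cells in the livers were read beside these values. Hepatocyte markers summed to 76912–101235 CPM in Tshr f/f-labelled livers and 93271–96206 CPM in TshrMKO-labelled livers. Alb alone had 45575–69735 and 64166–64553 CPM. Ttr was higher (log2 difference 0.37, SE 0.13, edgeR adjusted p = 0.412) and Apoa1 lower (−0.18, SE 0.13, adjusted p = 0.678) in every TshrMKO-labelled liver. The other hepatocyte markers overlapped. Macrophage markers summed to 123–314 and 128–294 CPM, and Kupffer cell markers to 223–590 and 195–503 CPM. Lyz2 had 27.7, 59.9 and 44.7 CPM in Tshr f/f-labelled livers and 1.56, 106 and 43.7 CPM in TshrMKO-labelled livers. Without Lyz2 the macrophage markers summed to 95.1, 254 and 168 CPM and 146, 187 and 84.6 CPM. The 5 adipocyte markers summed to 0.299–7.03 and 0.857–13.5 CPM, with Lep and Retn at 0 in all 6 livers, Plin1 at 0 in 5 and at 2 counts in TshrMKO replicate 2, and Adipoq at no more than 6 counts. The remaining marker, Cfd, had 0.372, 6.92 and 0.299 CPM in Tshr f/f-labelled livers and 1.84, 0.667 and 13.5 CPM in TshrMKO-labelled livers. Stellate cell markers (32.4–265 and 98.6–146 CPM), endothelial markers (38.4–142 and 91.8–129 CPM), fibroblast markers (6.43–64.5 and 27.4–53.3 CPM), neutrophil markers (5.87–70.0 and 7.32–14.4 CPM) and lymphocyte markers (2.00–4.41 and 2.65–3.65 CPM) overlapped between the groups, and their part in the values of the 10 genes was not tested. The 12 macrophage activation genes summed to 55.0–62.6 and 49.2–56.3 CPM in the livers, of which Hif1a had means of 33.2 and 27.9 CPM. This sum hides opposite directions. In edgeR 8 of the 12 genes were tested, with 2 higher and 1 lower in TshrMKO-labelled livers at an unadjusted p under 0.05. None of them passed the adjusted threshold. Il1a (means 1.84 and 3.88 CPM) and Cxcl10 (1.81 and 3.91 CPM) were higher and did not overlap between the groups. Il1rn (8.40 and 5.04 CPM) was lower and overlapped.

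In the 5 lists of droplet and lipid genes no gene passed the adjusted threshold in liver with edgeR. Of 20 droplet partners, 19 were tested, with 2 higher and 1 lower at an unadjusted p under 0.05. Fitm1, which partitions triglyceride into droplets, had 9.95, 10.4 and 10.7 CPM in Tshr f/f-labelled livers and 18.4, 11.4 and 27.3 CPM in TshrMKO-labelled livers, a log2 difference of 0.87 (SE 0.29). Mettl7a1 was at 0.49 and Spg20 at −0.33. Of 17 triglyceride synthesis genes, 16 were tested and 1 was lower, the phosphatidic acid phosphatase gene Lpin2, at 526, 500 and 522 CPM against 418, 172 and 320 CPM (log2 difference −0.77, SE 0.30). All 12 neutral lipid breakdown genes were tested, with 2 higher and 1 lower. Lipe, the gene of hormone-sensitive lipase, had 23.4, 18.9 and 17.5 CPM against 15.7, 16.2 and 14.1 CPM, a log2 difference of −0.38 (SE 0.14), while Lipc was at 0.31 and Ces3a at 0.27.

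All 18 PPAR target genes were tested in liver, with 1 higher and 4 lower at an unadjusted p under 0.05. Pdk4, an inhibitor of pyruvate oxidation, had 6.06, 7.20 and 10.7 CPM in Tshr f/f-labelled livers and 4.27, 4.19 and 4.64 CPM in TshrMKO-labelled livers, a log2 difference of −0.87 (SE 0.24). Fgf21, a fasting hormone of the liver, had 24.97, 4.80 and 25.8 CPM against 3.88, 4.81 and 3.36 CPM (−2.20, SE 0.60). As with G0s2 and Plin2, Tshr f/f replicate 2 lay at the level of the other group. Cpt1b was at −0.97 and Cpt1a at −0.52 (SE 0.16). The 1 higher gene was Fabp1, with means of 2741 CPM in Tshr f/f-labelled and 3806 CPM in TshrMKO-labelled livers. It was at 0.47 (SE 0.14), and its groups did not overlap. All 12 SREBP1c and ChREBP targets were tested and 1 was lower, Fasn, the fatty acid synthase gene, at −0.57 (SE 0.22). The median log2 differences of the lists were −0.04, −0.15, 0.20, −0.11 and 0.09 in the order given, against −0.01 over all genes.

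Between tissues, 8 of the 10 genes passed an adjusted p under 0.05 in a fit of all 12 libraries (Tshr f/f-labelled livers against BMDMs of Tshr f/f mice), all higher in liver, where 69.3% of all genes passed and 36.6% were higher in liver. Liver and BMDMs also differed in the age of the mice, diet, fasting, culture, TSH and insulin, and these cannot be told apart from tissue. Scaling by library totals, chosen after the data were seen, moved the median of all genes from 0.03 to −0.79 on the log2 scale, so both scales are given.

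For the genes at 0 in BMDMs of Tshr f/f mice only a lower bound exists, set against 3 counts over the group. With TMM scaling Plin5 was at least 8325-fold, Plin4 at least 7662-fold, Cidec at least 983-fold, Cidea at least 33.7-fold and Pnpla3 at least 19.7-fold higher in liver. With library totals the bounds were 4671, 4299, 551, 18.9 and 11.0. These bounds pool the libraries of a group. Cidea had 19, 29 and 0 counts in the Tshr f/f-labelled livers, overlapped between the tissues and was not called (edgeR, adjusted p = 0.0967). Cideb, with 3 counts over the 3 BMDM libraries and 17544 in the livers, had a ratio of 12333 (95% counting interval 4219–59810, exact binomial, counting error only), or 6920 (2367–33558) with library totals. G0s2, with 9 counts against 8598, had a log2 difference of 10.98 with an SE of 0.80 (edgeR, adjusted p = 6.99e-07), or 10.11 with library totals.

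The genes that both tissues expressed differed less. Pnpla2 had 52.2, 42.1 and 49.8 CPM in BMDMs of Tshr f/f mice and 153, 128 and 144 CPM in the livers on the scale of the 12 libraries, a log2 difference of 1.56 with an SE of 0.13 (edgeR, adjusted p = 1.37e-06), or 0.75 with library totals. Plin2 had 404, 248 and 369 CPM against 1189, 515 and 1075 CPM, a log2 difference of 1.44 with an SE of 0.33 (edgeR, adjusted p = 0.00244). With library totals it was 0.63 (adjusted p = 0.0809, range of the alternatives 5.53e-05 to 0.0809) and only 7 genes were called. Plin3, at 43.0, 47.2 and 26.6 CPM against 56.8, 44.8 and 49.6 CPM, overlapped between the tissues, with a log2 difference of 0.37 (SE 0.20, edgeR adjusted p = 0.120) that turned to −0.51 with library totals.

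The make-up of the perilipins was summarised as the share of each in their summed CPM per kb. In BMDMs Plin2 made up 85.0–93.7% in Tshr f/f and 91.0–92.2% in TshrMKO libraries, and Plin3 the rest. In Tshr f/f-labelled livers, Plin2 made up 54.9–74.2%, Plin5 18.3–25.9%, Plin4 4.17–14.7% and Plin3 3.06–4.43%. In TshrMKO-labelled livers, Plin2 made up 67.6–79.2%, Plin5 10.4–17.6%, Plin4 5.06–8.99% and Plin3 3.52–5.86%. The ranges of the Plin5 share did not overlap, and those of the other perilipins did.

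**Figure D5:**
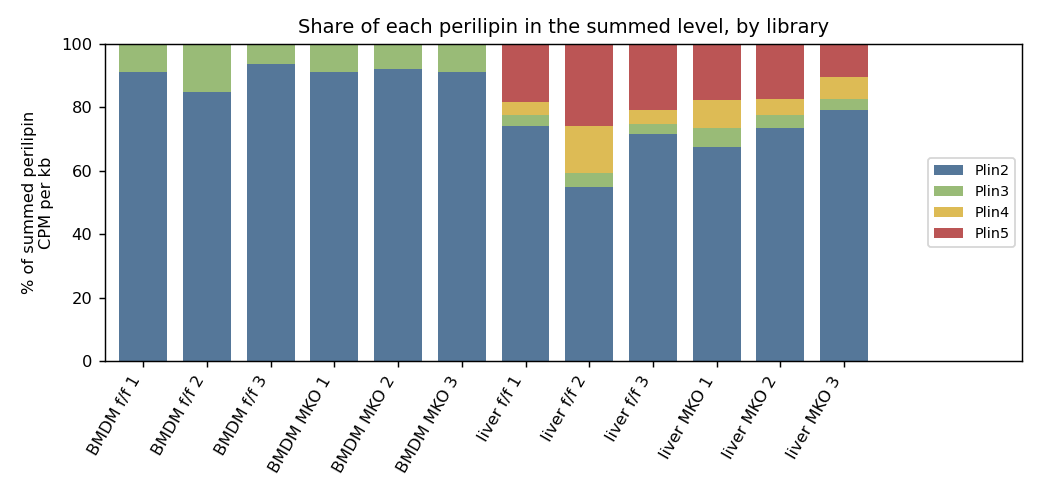
Stacked bars of the percentage that each perilipin contributed to the summed perilipin CPM per kb, 1 bar per library. BMDM bars hold Plin2 and Plin3 alone, and the Plin5 share was 18.3–25.9% in Tshr f/f-labelled livers and 10.4–17.6% in TshrMKO-labelled livers.

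The difference between the genotype effects of the tissues was tested as an interaction in the fit of 12 libraries. Plin2, Plin3 and Pnpla2 had lower genotype differences in liver than in BMDMs, by −1.28 (SE 0.46, unadjusted p = 0.0175, edgeR adjusted p = 0.256), −0.87 (SE 0.28, unadjusted p = 0.0109, adjusted p = 0.236) and −0.54 (SE 0.17, unadjusted p = 0.00992, adjusted p = 0.231) on the log2 scale. With each library left out these were −1.58 to −1.07, −1.04 to −0.67 and −0.62 to −0.46. At an adjusted p under 0.05, edgeR called 0 of the 10 genes and 0.0058% of all genes, and DESeq2 called Pnpla2 (adjusted p = 0.0254, range of the alternatives 0.0254–0.437) and 4.49% of all genes tested. At an unadjusted p under 0.05, 3 of the 10 genes, all lower, and 14.5% of all genes passed (7.12% lower). The 5 genes at 0 in BMDMs have no genotype difference there to compare, and G0s2 and Cideb had at most 14 counts per BMDM library. If the liver labels were the reverse, the liver terms would change sign. Within each tissue the log2 fold changes of Plin2, Plin3 and Pnpla2 were −0.46, −0.26 and −0.40 in livers and 0.82, 0.62 and 0.15 in BMDMs. The 3 interaction values would then not hold as given.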

How the data were processed

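Counts of reads per gene (unit: counts, not normalized) were deposited by the authors as 1 table of 55335 genes for 12 strand-specific libraries. Per the labels and methods, reads were trimmed with Skewer, checked with FastQC 0.11.2 and processed with STAR and StringTie on mm10; the counting step is not given in the sources used here. The members and lists were chosen with earlier results of these data known. The genes named from the lists were, per list and comparison, the 3 with the smallest p among those under an unadjusted p of 0.05. Fabp1 and Cpt1a were named in liver as well.

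Tests used the quasi-likelihood method of edgeR 4.0.16 (robust fit, TMM factors, filterByExpr) in R 4.3.3 within a tissue, or over 12 libraries for the tissue difference and the interaction, with Benjamini-Hochberg adjustment over all genes tested. The SE is the log2 fold change over the square root of F. Alternatives were RLE and upper-quartile scaling, library totals, other count filters, a non-robust fit, a fit of 12 libraries, the replicate number as a block, the ID letter, DESeq2 1.42.0 and each library left out. Scripts were tested on simulated data. Replicates are numbered in the labels, and p-values measure the spread between these libraries. Exon lengths came from GENCODE M21 (GRCm38), promoters from RefSeq (GRCm38.p6).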

Additional observations from a re-analysis of the deposited data

How the results depend on the processing

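Of 327 recomputed fold changes of single genes, 312 kept their direction and their side of the adjusted threshold. DESeq2 called 1, 2 and 1 of the 10 genes in BMDMs, livers and the interaction, against 0 with edgeR, and 1223, 269 and 774 genes in all against 0, 0 and 1. The replicate number as a block gave 1, 0 and 0 genes in these comparisons and turned Cidea in liver from 2.01 to −1.17; the same numbers correlated at 0.15, 0.04 and 0.12 in BMDMs and at −0.08, 0.25 and −0.03 in livers, and pair nothing in the labels. In BMDMs the fit of 12 libraries called 150 genes, and library totals left 1 of the 10 genes under an unadjusted p of 0.05 in place of 2. In livers 1 gene was called without a filter. In the interaction upper-quartile scaling called 3 genes and library totals 2. Plin3 between tissues was −0.51 with library totals. The cause was not tested.

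With each library left out, genes called ranged over 0–13 in BMDMs (13 without Tshr f/f replicate 2, 2 without replicate 3), 0–7 in livers (7 without Tshr f/f replicate 2, 2 without TshrMKO replicate 3) and 0–341 in the interaction (62, 341 and 16 without BMDM Tshr f/f replicate 1, 2 and 3, 2 and 4 without BMDM TshrMKO replicate 2 and 3). Of the 10 genes, 0 were called each time in both genotype comparisons and in the interaction, and 1–2 in BMDMs and 2–5 in livers passed an unadjusted p under 0.05. Log2 differences in liver ranged over −4.08 to 2.596 for Cidea, −0.04 (−0.0421) to 0.10 for Cideb and −0.61 to 0.28 for Pnpla3.

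The groups of 3, the few counts of Cidea and Pnpla3 and the conflict over the liver labels limit what these data can show, and no group lacked TSH, HFD or insulin.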
